A study of Mus musculus with 4 samples.

Results

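The transcripts of 10 genes that carry TGF-beta and BMP signals were followed among the RNAs recovered with an antibody against Runx1 and with non-specific IgG. They are the type I receptors Tgfbr1, Bmpr1a, Acvr1 and Acvrl1, the type II receptors Tgfbr2 and Bmpr2, the accessory receptor Eng and the intracellular proteins Smad1, Smad5 and Smad4. The genes were chosen by name from the pathway, with earlier results of these data known. They are 10 of the 55573 gene identifiers in the table, each found by its GENCODE M21 symbol. RNA immunoprecipitation sequencing (RIP-seq) sequences the RNA that an antibody holds on beads, and the same procedure with IgG measures the background. All 4 libraries came from Cd31+ cells of the caudal part of C57BL/6 embryos (genotype WT) at E10.0, sorted by fluorescence, with 2 libraries per antibody, called Runx1 libraries and IgG libraries below. Cd31 is encoded by Pecam1 and marks endothelium and part of the blood lineage. The labels do not tie replicates to different embryos, and the p-values therefore reflect spread among the 4 libraries only, and that spread may be technical. The input RNA was not analysed here.

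Ligands of this family bring type II and type I receptors together on the cell surface, and the type II receptor phosphorylates the type I receptor, which then phosphorylates SMAD proteins. SMADs of the BMP branch (Smad1, Smad5) and of the TGF-beta branch bind the common partner Smad4 and enter the nucleus, where they can act with RUNX proteins on shared target genes. In endothelium, Acvrl1 (ALK1) with Bmpr2 and the co-receptor endoglin (Eng) carries signals of circulating BMPs, and loss of any of Eng, Acvrl1 or Smad4 causes hereditary haemorrhagic telangiectasia in people. BMP signalling also takes part in the emergence of blood stem cells from the embryonic aorta.

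Members of one class are related in sequence, so their coding sequences were compared to see how far reads could be shared. The closest pair was Smad1 and Smad5, with 77.3% identical bases over 1386 aligned coding positions and no identical stretch longer than 17 bases. Acvr1 and Acvrl1 followed, with 67.6% identity over 1455 positions and a longest identical stretch of 17 bases. The longest identical stretch within any pair was 20 bases, between Bmpr1a and Acvr1 and between Smad5 and Smad4. The ends of the coding sequences of Smad1, Smad5, Acvr1 and Acvrl1 are shown because these pairs had the highest overall identity, and because the Smad1 and Smad5 tail is where type I receptors phosphorylate them. Each line gives the last 120 coding bases before the stop codon, 5′ to 3′ along the transcript (GENCODE M21, mm10; chromosome 8 minus strand, chromosome 13 plus strand, chromosome 2 minus strand and chromosome 15 plus strand, in this order), and capitals mark the bases that differ within the pair.
Smad1: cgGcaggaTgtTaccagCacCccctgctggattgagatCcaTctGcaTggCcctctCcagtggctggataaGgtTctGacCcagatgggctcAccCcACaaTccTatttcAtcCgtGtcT
Smad5: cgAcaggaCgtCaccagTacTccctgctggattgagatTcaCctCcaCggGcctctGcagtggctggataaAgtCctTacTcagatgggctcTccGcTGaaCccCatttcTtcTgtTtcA
Acvr1: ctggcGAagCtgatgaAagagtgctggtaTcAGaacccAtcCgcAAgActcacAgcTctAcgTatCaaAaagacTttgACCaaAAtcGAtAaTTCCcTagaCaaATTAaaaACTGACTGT
Acvrl1: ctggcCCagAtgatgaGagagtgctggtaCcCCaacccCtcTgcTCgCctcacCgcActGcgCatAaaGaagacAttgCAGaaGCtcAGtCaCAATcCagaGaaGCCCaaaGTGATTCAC
Of the 120 positions, 25 differed between Smad1 and Smad5 and 46 between Acvr1 and Acvrl1. No member shared a stretch of 200 bases or more at 95% identity or more with the transcript of a gene at another locus. Bmpr1a shared 290 bases with Gm17110, an antisense gene at its own locus that had 6 to 15 counts per library against 130 to 523 for Bmpr1a. Exons of Eng overlap Fpgs on the opposite strand, which had 19 to 73 counts per library. The strand setting of the counting is not given in the sources used here, so reads from that overlap cannot be assigned to Eng or Fpgs. Exons of Acvrl1 and Smad5 overlap Gm16031 and Gm27301, both of which had 0 counts in all 4 libraries.

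The libraries held between 1675488 and 3843318 gene counts, and 3 counts, the limit that a count of 0 allows, corresponded to between 0.781 and 1.79 CPM (counts per 1e6 gene counts). Endothelial markers were present, with a summed level over 14 genes of 1654 to 2078 CPM in the Runx1 libraries and 1985 to 2020 CPM in the IgG libraries, and Kdr, a receptor for VEGF, was the most abundant at 663 to 873 CPM. Markers of other cells were present too. The 10 mesenchymal markers summed to 1406 and 1487 CPM in the Runx1 libraries against 1322 and 1222 CPM in the IgG libraries, and Pdgfra alone stood at 382 to 473 CPM. The 9 neural markers, led by Nes, summed to 769 and 624 CPM against 580.5 and 576 CPM. The 9 erythroid markers, led by the embryonic globin gene Hbb-y, summed to 857 and 882 CPM against 492 and 454 CPM. The 9 macrophage and platelet markers, led by Mrc1 on the mean over the 4 libraries, summed to 138 and 268 against 149.6 and 129 CPM, with Csf1r at 144 CPM in Runx1 replicate 2 and at 9.67 to 12.5 CPM in the other libraries. The 7 epithelial markers, led by Cdh1, summed to 189.8 and 201 against 203 and 191 CPM, and the 10 haematopoietic markers, led by Kit, to 175 and 242 against 256 and 216 CPM. In the edgeR test described next 0 genes of these 7 lists passed, while an unadjusted p under 0.05 was reached by 6.88% of all tested genes in the higher and by 7.35% in the lower direction. At that threshold 4 of 7 tested erythroid, 2 of 4 macrophage and platelet, 2 of 9 mesenchymal, 1 of 9 neural and 1 of 6 epithelial markers were higher in the Runx1 libraries, and 1 mesenchymal, 1 neural and 1 endothelial marker were lower. The part of these cells in the results below was not tested. In such bulk samples the number of cells of a type, the RNA per cell and the recovery with the antibody cannot be told apart.

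Tgfbr1 and Bmpr2 were lower in the Runx1 libraries than in the IgG libraries, the former 1.86-fold and the latter 2.10-fold. The other 8 members did not pass the test. Neither call held once transcript length and GC content were corrected for, as described below. Tgfbr1, also called ALK5, is the type I receptor for TGF-beta, and Bmpr2 is the main type II receptor for BMPs. All 10 members passed the filter on low counts, 0 were called higher and 2 lower at an edgeR false discovery rate of 0.05, where 42 of 12401 genes tested (0.339%) were called lower and 38 (0.306%) higher. The median log2 fold change over the 10 members was -0.47, and the median over all tested genes was 0.03. Fold changes are Runx1 antibody over IgG, fitted with edgeR's quasi-likelihood test after TMM scaling so that values are relative to most genes in the library. DESeq2, which gave no adjusted p for Acvrl1, Smad1 and Eng, called the same 2 members lower and 0 higher, where it called 2.77% of tested genes lower and 1.98% higher. So did limma-voom, with 0.968% of tested genes lower and 0.823% higher. With the replicate numbers as a block, which the labels do not describe as pairs, edgeR called 0 members, 0 other genes lower and 2 genes (0.0161%) higher.

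**Figure D1:**
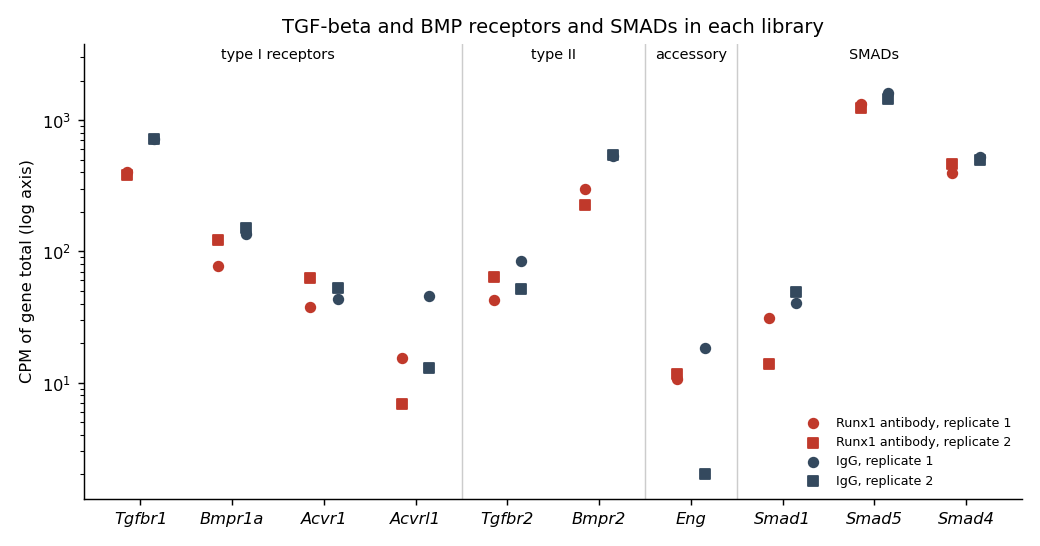
Level of each member in each library, as CPM of the gene total on a log axis, with Runx1 antibody libraries in red, IgG libraries in dark blue, circles for replicate 1 and squares for replicate 2. Tgfbr1 (383 and 405 CPM against 714 and 723) and Bmpr2 (224 and 298 against 530.0 and 541) are separated between antibodies, while the IgG libraries of Eng (18.5 and 2.01 CPM) and Acvrl1 (45.5 and 12.9) lie far apart.

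Among the type I receptors, Tgfbr1 (chromosome 4, 47353222 to 47414931) had 679 and 723 counts in the Runx1 libraries and 2746 and 1795 in the IgG libraries. These corresponded to 405 and 383 CPM against 714 and 723 CPM, or 394 ± 15.7 against 719 ± 6.16 (SD, n = 2). Both Runx1 libraries lay below both IgG libraries, and replicates of 1 antibody differed by at most 1.06-fold. Its fitted log2 change was -0.90 ± 0.14 (SE; edgeR adjusted p = 0.0415). Bmpr1a (ALK3), a receptor for BMP2 and BMP4 on chromosome 14 (34410734 to 34503341), stood at 77.6 and 122 CPM against 136 and 151 CPM in the IgG libraries. The antibodies did not overlap, but the Runx1 libraries differed 1.58-fold from each other (exact 95% interval 1.27 to 1.97, counting error only). The log2 fold change of -0.55 ± 0.31 missed the threshold (edgeR adjusted p = 0.492), and it ranged from -0.94 to -0.28 when 1 library was left out.

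Acvr1 (ALK2), a type I receptor for BMP6 and BMP7 on chromosome 2 (58388644 to 58567157), stood at 37.6 and 63.1 CPM in the Runx1 libraries and 43.2 and 52.4 CPM in the IgG libraries. The IgG values lay between the Runx1 values, and the log2 fold change was 0.05 ± 0.45 (edgeR adjusted p = 0.980). Acvrl1, the endothelial type I receptor on chromosome 15 (101128522 to 101145336), had 26 and 13 counts in the Runx1 libraries and 175 and 32 in the IgG libraries. Its levels of 15.5 and 6.89 CPM overlapped those of 45.5 and 12.9 CPM in the IgG libraries. Its log2 fold change of -1.42 ± 0.81 had the largest size of the 10 and missed the threshold (edgeR adjusted p = 0.489). IgG replicate 1 held 3.53 times the Acvrl1 level of IgG replicate 2 (exact 95% interval 2.41 to 5.32, counting error only). Without IgG replicate 1 the log2 fold change of Acvrl1 was -0.25 and without IgG replicate 2 it was -2.07.

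Of the type II receptors, Bmpr2 (chromosome 1, 59763400 to 59879014) had 500 and 422 counts in the Runx1 libraries and 2037 and 1344 in the IgG libraries. In CPM these were 298 and 224 against 530.0 and 541, or 261 ± 52.9 against 536 ± 8.12 (SD, n = 2). The antibodies did not overlap, and the Runx1 libraries differed 1.33-fold from each other (exact 95% interval 1.17 to 1.52). Its fitted log2 change was -1.07 ± 0.19 (SE; edgeR adjusted p = 0.0490), which stood at 0.0523 with DESeq2's size factors and 0.0580 with library totals alone. Tgfbr2, the type II receptor for TGF-beta on chromosome 9 (116084293 to 116175360), stood at 42.4 and 63.6 CPM against 83.8 and 52.0 CPM in the IgG libraries. The antibodies overlapped, and the log2 fold change was -0.39 ± 0.43 (edgeR adjusted p = 0.766), ranging from -0.74 to -0.01 when 1 library was left out. Tgfbr1 and Tgfbr2 form 1 receptor complex for TGF-beta, and whether their fold changes differ from each other was not tested.

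Eng, which encodes the co-receptor endoglin (chromosome 2, 32646595 to 32682669), had the lowest CPM of the members on the mean over the 4 libraries, though not in Runx1 replicate 2, where Acvrl1 was lower. It had 18 and 22 counts in the Runx1 libraries and 71 and 5 in the IgG libraries, or 10.7 and 11.7 against 18.5 and 2.01 CPM. Both Runx1 values lay between the IgG values. IgG replicate 1 held 9.17 times the Eng level of IgG replicate 2 (exact 95% interval 3.75 to 29.1, counting error only). The log2 fold change was 0.09 ± 1.05 (edgeR adjusted p = 0.987), and it moved to 2.40 without IgG replicate 1 and to -0.76 without IgG replicate 2.

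The SMADs held most of the counts. Smad5 (chromosome 13, 56703010 to 56742377) was the most abundant member in every library, with 2211 and 2318 counts in the Runx1 libraries and 6153 and 3581 in the IgG libraries. Its levels were 1319.6 and 1228 CPM against 1601 and 1443 CPM, higher than those of 99.8% of tested genes on the mean over the libraries. The antibodies did not overlap, and the log2 fold change of -0.29 ± 0.11 missed the threshold (edgeR adjusted p = 0.284). Smad4, the common partner (chromosome 18, 73639009 to 73703780), stood at 395 and 462 CPM against 525 and 498 CPM. Its groups did not overlap either, and its log2 fold change of -0.28 ± 0.16 missed the threshold (edgeR adjusted p = 0.485). Smad1, the close relative of Smad5 (chromosome 8, 79338395 to 79399518), had 52 and 26 counts against 156 and 122 in the IgG libraries, or 31.0 and 13.8 against 40.6 and 49.2 CPM. All Runx1 values of Smad1 lay below the IgG values, and the log2 fold change of -1.04 ± 0.57 missed the threshold (edgeR adjusted p = 0.471). Without Runx1 replicate 1 it was -1.75 and without Runx1 replicate 2 it was -0.58.

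Counting members by whether the antibodies overlap, 6 of the 10 (Tgfbr1, Bmpr1a, Bmpr2, Smad1, Smad5 and Smad4) had both Runx1 libraries below both IgG libraries in CPM, as did 21.3% of all tested genes, and 0 had both above, as did 24.1%. At an unadjusted edgeR p under 0.05, 3 members (Tgfbr1, Bmpr2 and Smad5) were lower, against 7.35% of all tested genes, and 0 higher, against 6.88%. The fitted log2 fold change was below 0 for 8 of the 10, all but Acvr1 and Eng, and for 48.5% of tested genes.

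Per length of the longest transcript, the members' levels over the 4 libraries ran from Smad5 at 212 CPM per kilobase down to Eng at 3.13. Smad4 followed Smad5 at 139, then Tgfbr1 at 96.7, Bmpr2 at 30.9, Bmpr1a at 20.4, Acvr1 at 14.9, Smad1 at 8.91, Tgfbr2 at 7.47 and Acvrl1 at 5.55 CPM per kilobase. The lowest library of Smad5 lay above the highest of Smad4, and the lowest of Tgfbr1 above the highest of Bmpr2. All other neighbours in this order overlapped in their range over the libraries. Compared within single libraries, Smad4 lay above Tgfbr1, Bmpr1a above Acvr1 and Acvr1 above Smad1 in all 4. The remaining overlapping neighbours changed order between libraries. On the same scale Pecam1, the gene of the sorted surface protein, stood at 23.1 to 29.9 and Kdr at 112 to 147. Eng stood at 0.589 to 5.40 and Acvrl1 at 1.89 to 12.5 CPM per kilobase, below both markers in every library. Among the other endothelial markers, only Erg (3.75) and Sox17 (0.672) lay below Acvrl1 on the mean over the libraries. Only Sox17 lay below Eng. Within the BMP branch the Smad5 transcript gave 24.4 and 51.1 times the counts per kilobase of Smad1 in the Runx1 libraries, and 22.6 and 16.8 times in the IgG libraries.

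Receptor transcripts were then set against SMAD transcripts, the comparison for which the genes were grouped. The 7 receptors summed to 888 and 874 CPM in the Runx1 libraries and 1572 and 1535 CPM in the IgG libraries, a mean of 881 ± 9.36 against 1553 ± 25.8 (SD, n = 2). The 3 SMADs summed to 1745 and 1704 CPM against 2167 and 1990 CPM, a mean of 1725 ± 29.1 against 2078 ± 125. Both sums were lower in the Runx1 libraries without overlap, and the receptor sum was lower by the larger factor.

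Receptors gave 0.509 and 0.513 counts per SMAD count in the Runx1 libraries and 0.725 and 0.771 in the IgG libraries, a ratio 1.46 times as high with IgG. As a score over chosen genes it was given no test, and 2 libraries against 2 could not give an exact two-sided p below 0.333. No version of this ratio that allows for transcript length and GC content in each library was computed. When single genes were fitted with that allowance, Tgfbr1 and Bmpr2 had log2 fold changes of -0.46 each and neither was called. Smad5, Smad4 and Smad1 then had 0.07, -0.35 and -1.12. How much of the difference in the ratio would remain was not tested. The ratio of type I receptors to SMADs was 0.307 and 0.338 against 0.434 and 0.472, and that of type II receptors 0.195 and 0.169 against 0.283 and 0.298. The ratio of Eng to SMADs overlapped between antibodies (0.00616 and 0.00684 against 0.00853 and 0.00101). With Tgfbr1 and Bmpr2 left out, a choice made after seeing the data, the receptor to SMAD ratio was 0.105 and 0.157 against 0.151 and 0.136, and the antibodies overlapped. Tgfbr1 gave 0.307 and 0.312 counts per Smad5 count against 0.446 and 0.501, and Bmpr2 0.226 and 0.182 against 0.331 and 0.375. The ratio of Smad5 to Smad4 overlapped between antibodies, at 3.34 and 2.66 against 3.05 and 2.89.

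**Figure D2:**
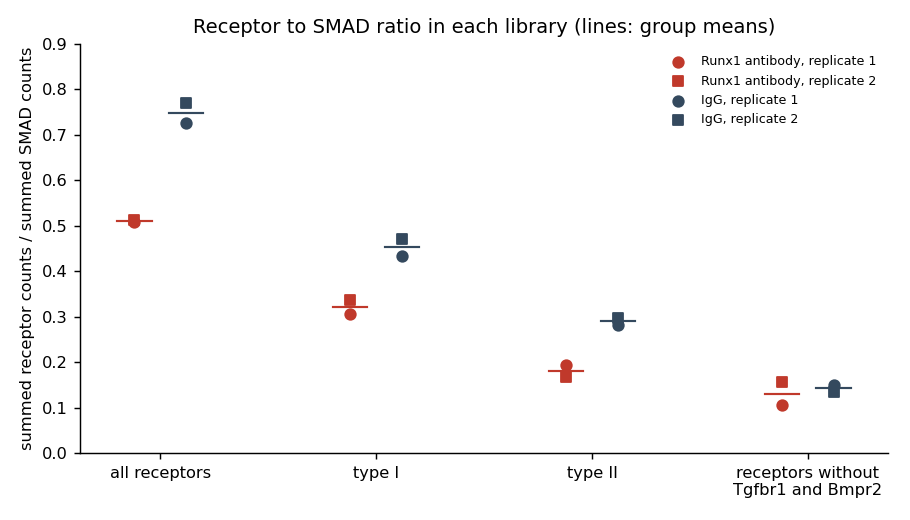
Summed receptor counts divided by summed SMAD counts in each library, for all 7 receptors, the 4 type I receptors, the 2 type II receptors, and the 5 receptors other than Tgfbr1 and Bmpr2, with lines at group means. The Runx1 antibody libraries (0.509 and 0.513) lie below the IgG libraries (0.725 and 0.771) for all receptors, and the antibodies overlap once Tgfbr1 and Bmpr2 are left out. The counts are not adjusted for transcript length or GC content.

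The members differ in the length and base composition of their transcripts, and fold changes over all genes ran with both. The median log2 fold change of all tested genes was 0.36 in the shortest of 5 equal classes by transcript length (up to 1948 bases) and -0.27 in the longest class (from 5489 bases), which held 31 of the 42 genes called lower. By GC content it was -0.28 in the lowest of 5 equal classes and 0.29 in the highest. Bmpr2, with a longest transcript of 12899 bases, was longer than 99.0% of tested genes, and 8532 of these bases lie in its 3′ untranslated region. Tgfbr1 (5756 bases), Bmpr1a (5956), Smad5 (6584) and Tgfbr2 (8092) also lay in the longest class, and Tgfbr1, Bmpr1a and Bmpr2 in the class of lowest GC content (41.0%, 41.3% and 41.0%). The other 5 members lay in the middle class by length, between 3293 and 3775 bases.

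After a correction of each library for transcript length and GC content, 0 of the 10 members were called. Called genes then numbered 4 lower (0.0323% of all tested) and 30 higher (0.242%). The log2 fold change of Tgfbr1 went from -0.90 to -0.46 ± 0.14 (edgeR adjusted p = 0.270) and that of Bmpr2 from -1.07 to -0.46 ± 0.16 (edgeR adjusted p = 0.330). Bmpr1a moved to -0.09 ± 0.33, Tgfbr2 to -0.13 ± 0.43 and Smad5 to 0.07 ± 0.11. The 5 members of middle length moved less, Smad4 to -0.35 ± 0.16, Smad1 to -1.12 ± 0.58, Acvrl1 to -1.59 ± 0.82, Acvr1 to -0.01 ± 0.45 and Eng to -0.14 ± 1.04.

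**Figure D3:**
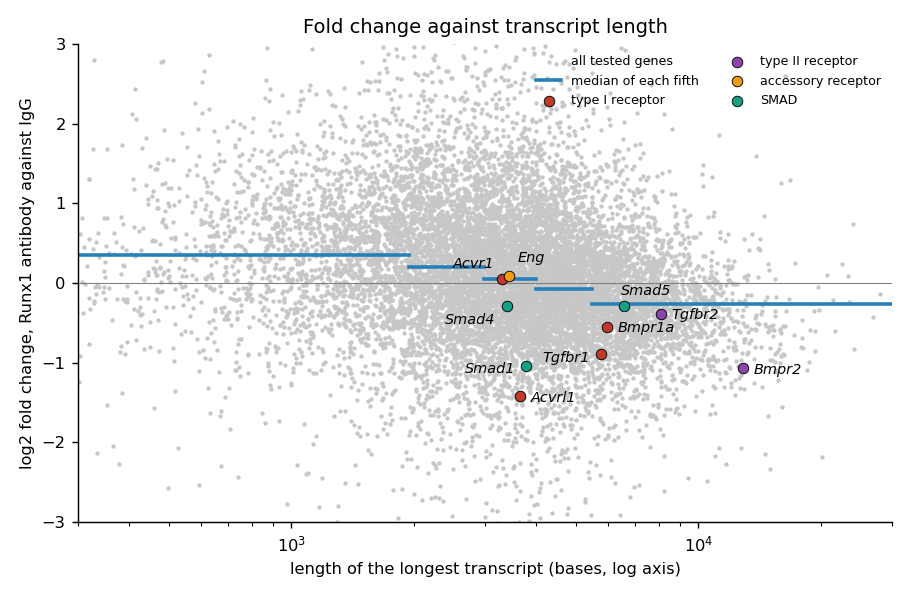
Log2 fold change (Runx1 antibody against IgG) of all tested genes against the length of their longest transcript in bases on a log axis, with blue lines at the median of each length class and the members coloured by class. Of 12396 genes with a length, 283 lie outside the axes, and Bmpr2 stands at the far right (12899 bases, -1.07), below the median of the longest class (-0.27).

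Synthetic spike-in RNAs gave a different scale. Their summed counts were 596 and 713 in the Runx1 libraries and 494 and 434 in the IgG libraries, while the Runx1 libraries held fewer gene counts. Scaled to them, the median of all genes shifted from 0.03 to -1.25 on the log2 scale, 31.6% of tested genes were called lower, and 8 of the 10 members were called lower, all but Acvr1 and Eng. Relative to that shifted median the log2 fold change of Tgfbr1 was -0.92, that of Bmpr2 -1.08, those of Smad5 and Smad4 -0.32 each and that of Acvr1 0.04.

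**Figure D4:**
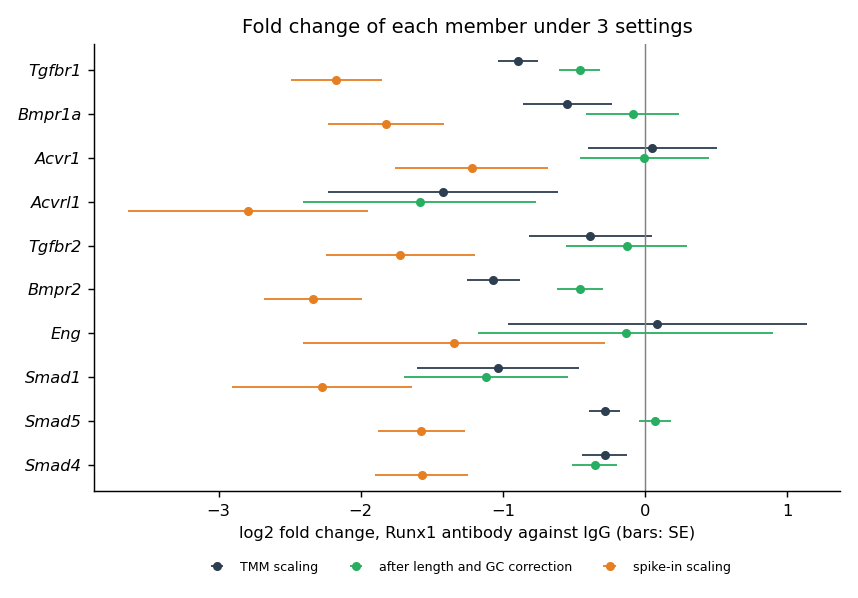
Log2 fold change of each member with its SE under TMM scaling, after correction for length and GC content, and under spike-in scaling. Tgfbr1 and Bmpr2 move to about -0.46 each after the correction, and under spike-in scaling each member lies lower than under TMM scaling.

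The rest of the pathway was read from lists of ligands, modulators, other receptors, other SMADs and targets. Of 84 listed genes with an identifier, 64 passed the filter on low counts, and in the edgeR fit 0 were called higher and 0 lower (1 and 5 at an unadjusted p under 0.05). Of the pathway genes named below, DESeq2 and edgeR without a filter on low counts called Ltbp1 and Tab2 lower, and edgeR with a strict filter called Ltbp1. Under spike-in scaling, where 31.6% of tested genes were called lower, Tgfb2, Acvr2b, Rgmb, Smad2, Smad3, Fstl1, Ltbp1, Fkbp1a, Tab2 and Ppm1a were called lower. The median log2 fold change over the 64 genes was -0.16, with 28 above 0 and 36 below 0. Neither this median nor those of the single lists below were corrected for transcript length and GC content. How far the lists would differ after that correction was not tested.

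Of 16 ligand genes 10 did not pass the filter on low counts. Among these were Tgfb1, Bmp2, Gdf2 (BMP9) and Bmp10, the last 2 at 0 counts in all 4 libraries. A count of 0 allows up to 0.781 CPM in the deepest library and 1.79 CPM in the shallowest. Tgfb2 was the most abundant ligand at 125 and 74.7 CPM in the Runx1 libraries against 124 and 119 in the IgG libraries. Bmp4, a ligand known from the ventral side of the embryonic aorta, stood at 35.8 and 102 against 35.9 and 88.6 CPM, so its replicates differed more than its antibodies. Bmp7 stood at 50.1 and 39.7 against 45.5 and 41.5 CPM.

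Of the other receptors, Acvr2b, a type II receptor for activins, stood at 1023 and 1439.6 CPM against 1359.8 and 1503 (log2 fold change -0.24 ± 0.16, edgeR adjusted p = 0.567). Without Runx1 replicate 2 the log2 fold change of Acvr2b was -0.54, and without Runx1 replicate 1 it was -0.05. The BMP co-receptor Rgmb stood at 191 and 88.0 CPM against 255 and 183 (log2 fold change -0.68 ± 0.36, edgeR adjusted p = 0.445). Without Runx1 replicate 1 Rgmb stood at -1.37, and without Runx1 replicate 2 it stood at -0.25. Betaglycan (Tgfbr3), a co-receptor for TGF-beta, stood at 116 and 60.9 CPM against 84.0 and 72.1 (0.15 ± 0.39, edgeR adjusted p = 0.918), and its antibodies overlapped. The list's 10 tested genes had a median log2 fold change of -0.39, with 8 of them below 0. Among the other SMADs, the TGF-beta branch members had log2 fold changes of opposite sign under TMM scaling, and both were below 0 under spike-in scaling. Smad2 stood at 75.2 and 84.2 CPM against 158 and 131 (log2 fold change -0.89 ± 0.29, edgeR adjusted p = 0.220) and Smad3 at 386 and 326 against 322 and 278 (0.21 ± 0.18, edgeR adjusted p = 0.679). The inhibitory Smad6 stood at 40.6 and 46.6 against 33.0 and 30.6 CPM (0.43 ± 0.47, edgeR adjusted p = 0.761). Smad9 had 1 count in all 4 libraries together.

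Among extracellular modulators, Ltbp1, which stores latent TGF-beta in the matrix, came nearest to a call at 306 and 386 CPM against 527 and 614 (log2 fold change -0.75 ± 0.18, edgeR adjusted p = 0.118). Leaving out Runx1 replicate 2 or IgG replicate 1 moved Ltbp1 to -0.95 and -0.87. Leaving out Runx1 replicate 1 or IgG replicate 2 moved it to -0.62 and -0.64. Fstl1 stood at 480.5 and 449 CPM against 485 and 513 (-0.13 ± 0.15, edgeR adjusted p = 0.772). The BMP-binding protein Twsg1 stood at 72.2 and 68.4 CPM against 64.3 and 37.1 (0.44 ± 0.42, edgeR adjusted p = 0.715). The median log2 fold change over the 9 tested modulators was 0.50. Of 22 tested intracellular modulators 16 had a log2 fold change below 0 (median -0.36). Tab2, an adaptor of the kinase TAK1, stood at 326 and 372 CPM against 569 and 462 (-0.59 ± 0.18, edgeR adjusted p = 0.190). Its log2 fold change ranged from -0.74 to -0.45 when 1 library was left out. The phosphatase Ppm1a stood at 257 and 243 CPM against 264 and 348 (-0.32 ± 0.21, edgeR adjusted p = 0.548). Fkbp1a (FKBP12), which binds type I receptors, stood at 465 and 459 CPM against 479.8 and 454 (-0.04 ± 0.15, edgeR adjusted p = 0.943).

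Of 15 tested target genes 9 had a log2 fold change above 0 under TMM scaling, with a list median of 0.28. Id1 and Id3, direct targets of BMP SMADs, have short transcripts of 1160 and 1278 bases. Id1 stood at 173 and 254 CPM in the Runx1 libraries against 154 and 142 in the IgG libraries (log2 fold change 0.51 ± 0.26, edgeR adjusted p = 0.432). Id3 stood at 175 and 245 against 122 and 137 CPM (0.67 ± 0.26, edgeR adjusted p = 0.294). Both had all Runx1 values above the IgG values and neither passed, and after the length and GC correction Id1 stood at 0.03 and Id3 at 0.19. Ccn1 stood at 67.4 and 54.6 CPM against 47.4 and 56.4 (0.20 ± 0.39, edgeR adjusted p = 0.884). With the length and GC correction, the receptors Acvr2b, Rgmb and Tgfbr3 stood at -0.48, -0.50 and 0.34. Smad2, Smad3 and Smad6 then stood at -0.48, 0.21 and 0.16. The modulators Ltbp1, Fstl1, Twsg1, Tab2 and Fkbp1a stood at -0.64, -0.12, 0.57, -0.52 and -0.41, and the ligand Tgfb2 at -0.15.

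**Figure D5:**
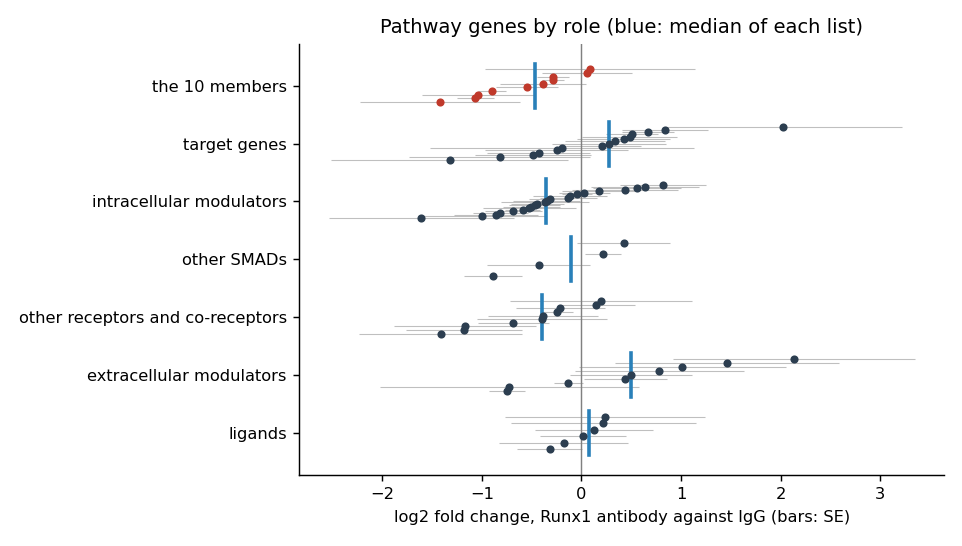
Log2 fold change with its SE of each tested pathway gene by role, and of the 10 members in red, with blue lines at the median of each list. The members' median lies at -0.47, that of the intracellular modulators at -0.36 and that of the target genes at 0.28. The values are not corrected for transcript length or GC content.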

How the data were processed

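RIP-seq libraries of sorted Cd31+ cells were analysed, 2 per antibody, grouped by the sample titles. The authors deposited 1 table of raw counts per Ensembl gene, whole numbers without normalization, with 92 spike-in lines kept out of library sizes and tests. The mm10 build and the tools Salmon 1.1.0, STAR 2.7.3a and Trimmomatic 0.36 are named per the submitters' processing notes, in no stated role. Per the labels' protocols, a reverse transcription made for single cells was used on the RNA, followed by sonication of cDNA. No molecular identifiers are named, so intervals and floors cover counting error only. The sources used here do not give annotation, strand setting or counting method. Whole numbers could be counted reads or rounded estimates, which would divide reads between similar genes.

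Of 55573 identifiers 55480 matched GENCODE M21. The test was edgeR's quasi-likelihood test (edgeR 4.0.16, R 4.3.3; TMM, filterByExpr at 10 counts and 15 in total, no block, two-sided, Benjamini-Hochberg over 12401 genes), with a biological coefficient of variation of 46.1%. The main edgeR fit was tested on simulated counts that held no length or GC trend, so the length and GC correction was not tested. Standard errors are those implied by the test statistic. Replicate ratios carry exact Clopper-Pearson 95% intervals. The longest transcript stood for each gene, except in the coding comparison, which used the longest coding sequence. Copies were sought with blastn 2.17.0. The length and GC correction used natural splines (5 degrees of freedom each) per library as offsets. DESeq2 1.42.0 and limma 3.58.1 (voom) were alternatives. Deviations from the group means had a correlation of 0.00438 between libraries of the same replicate number. Over all tested genes this shows no broad shared shift, and it cannot settle whether these libraries are paired. All members were named. Of each pathway list the 3 tested genes with the highest mean CPM and any gene that passed were named, and of each marker list the top gene. Pecam1, Erg, Sox17, Csf1r, genes at or near 0 and genes overlapping members were named besides, chosen after their values were seen. The members and lists were chosen with earlier results of these data known. Single values of some listed genes are not reported here.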

Additional observations from a re-analysis of the deposited data

How the results depend on the processing

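The 10 members were recomputed under 13 alternatives (Eng under 12), and none called a member higher. Tgfbr1 was called lower in 11 of them, all but the replicate block (edgeR adjusted p = 0.123) and the length and GC correction, and Bmpr2 in 9. Members called lower numbered 1 with DESeq2 size factors, 1 with library totals alone, 8 with spike-in scaling, 0 with the replicate block and 0 once length and GC were corrected for, and 2 under every other alternative. The block lost both calls (Bmpr2 adjusted p = 0.142 with edgeR), and the labels do not say that the replicate numbers pair libraries. Against 38 genes called higher, there were 19 with spike-in scaling, 224 without a filter on low counts, 125 with a strict filter, 2 with the block, 246 with DESeq2, 102 with limma-voom, 106 at a false discovery rate of 0.1, and 94 to 248 without 1 library. Against 42 genes called lower, these settings gave 3914, 325, 160, 0, 344, 120, 124 and 80 to 352, and the length and GC correction gave 4. A fit without 1 library assumes that the lone library of its group varies like the other group. The log2 difference of the receptor to SMAD ratio of -0.55 became -0.47 per kilobase, -0.45 without Bmpr2 and -0.15 without Tgfbr1 and Bmpr2. The value per kilobase used the same length in every library, so it does not correct for a length trend that differs between libraries. Other signs changed too. Under spike-in scaling Acvr1 stood at -1.22, Eng at -1.34, Bmp4 at -1.08, Bmp7 at -1.27, Tgfbr3 at -1.13, Smad3 at -1.07, Smad6 at -0.86, Twsg1 at -0.89, Id1 at -0.79, Id3 at -0.61 and Ccn1 at -1.05, where the median of all genes was -1.25. After the length and GC correction Acvr1 stood at -0.0051, Eng at -0.14, Smad5 at 0.070, Bmp4 at -0.22, Bmp7 at -0.16, Ppm1a at 0.12 and Ccn1 at -0.11. Bmp7 stood at -0.026 without a filter and -0.0057 with limma-voom. Without 1 library the ranges were -0.40 to 0.35 for Acvr1, -0.76 to 2.40 for Eng, -0.84 to 0.90 for Bmp4, -0.19 to 0.15 for Bmp7 and -0.41 to 0.52 for Tgfbr3. Eng did not pass the strict filter. Eng, Acvrl1 and Smad1 had 5 to 175 counts per library, which limits their precision. The cause of these changes was not tested.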
